A study of Mus musculus with 203 samples.

Results

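The airway response to cigarette smoke was measured in mice that were also given dexamethasone (DEX), by comparing 10 airway libraries labelled PBS.CS.DEX with 10 labelled PBS.AIR.DEX. The libraries were chosen by the title each sample carries, and these 20 are part of 80 airway libraries of the same time in 8 groups. All 20 came from female BALB/c mice of 18-20 weeks that received intranasal PBS in place of house dust mite extract (HDM), so no allergen was given in either group. PBS.CS.DEX mice breathed cigarette smoke (CS) 2 times a day on 5 days a week for 8 weeks, ending at week 11, and PBS.AIR.DEX mice breathed normal air. DEX was given to both groups during week 11, at a dose the sample labels do not state, and whether the transcripts bear out this label is given with the glucocorticoid receptor targets. The question the contrast answers is which airway transcripts differ with smoke when both arms were given a corticosteroid. The matching groups without DEX (PBS.CS and PBS.AIR, 10 airway libraries each) and the lung parenchyma of the same 2 treatments (10 libraries each) were used to test where the response differed. PBS.AIR also served to check the DEX label, and PBS.CS and PBS.AIR are among the 80 airway libraries fitted together. Airway and parenchyma were separated by blunt dissection, and the labels do not say which libraries share a mouse.

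Cigarette smoke carries polycyclic aromatic hydrocarbons, which bind the aryl hydrocarbon receptor (AHR) in epithelial and other cells and switch on phase I enzymes such as CYP1A1. It also carries oxidants and electrophiles, which release the transcription factor NRF2 from its inhibitor KEAP1 and switch on glutathione and quinone-reducing enzymes. Repeated exposure brings macrophages and neutrophils into the airway. Dexamethasone acts through the glucocorticoid receptor, which represses many cytokine genes and lowers lymphocyte numbers.

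The 20 libraries held between 22638626 and 37103574 estimated counts, and 18015 genes passed the filter on low counts. CPM are counts relative to the library total, after scaling of the totals by the trimmed mean of M values (TMM). Club cell secretoglobin Scgb1a1, the defining transcript of conducting airway, ranged from 39119 to 75464 (median 44737) CPM in PBS.AIR.DEX and from 28639 to 52140.3 (median 42352) CPM in PBS.CS.DEX, and Foxj1, the regulator of motile cilia, ranged from 116.3 to 239 (median 164.9) CPM in PBS.AIR.DEX and from 118.9 to 263 (median 186.4) CPM in PBS.CS.DEX. Scgb1a1 in parenchyma of the same treatments lay between 20509 and 41751 CPM with air and between 10967 and 34690.3 CPM with smoke. The airway libraries also held tissue next to the airway in uneven amounts. The summed level of 11 adipose genes ran from 147.1 to 4012 CPM in PBS.AIR.DEX and from 148.3 to 4170.1 CPM in PBS.CS.DEX, that of 9 alveolar type II cell genes from 13438 to 32839 and from 10212 to 33081, and that of 15 cardiac muscle genes from 460.4 to 3749 and from 286 to 2551. No gene of these 3 lists differed between the groups by limma, with 2 of their 35 genes at an unadjusted p under 0.05, 0 called by edgeR and 1 by DESeq2. With the 3 summed levels as covariates, an alternative chosen after seeing the data, all 561 genes called below were called again.

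Smoke under DEX changed 561 of 18015 genes (3.11%) at a limma adjusted p under 0.05, of which 338 were higher (1.88%) and 223 lower (1.24%). Of the genes tested, 0.594% were called and rose by a log2 fold change (log2FC) of at least 1, and 62 (0.344%) fell by as much. The 10 smoke libraries lay wholly above the 10 air libraries for 52 genes (0.289%) and wholly below for 21 (0.117%), one of which did not pass the test. The median log2FC of all genes tested was -0.0049, and no scaling moved it by more than 0.1. Among genes of at least 1 CPM whose groups did not overlap, the rises of greatest size were Spink5, Saa3, Ahrr, Vnn1, Retnla, Mab21l3, Gp2, Lemd1, Nqo1, Orm2, Ggt1 and Ugt1a1, and the falls were Cdc20b, Tbata, Bcan, Ccna1, Rptn, Ppp2r2c and Iyd. 

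The AHR targets Ahrr and Nqo1 were among the rises of greatest size. Of 13 measured targets, 7 rose and none fell, with a median log2FC of 0.66 against -0.0049 for all genes. This count and those of the lists that follow are to be read against 1.88% of all genes tested called higher and 1.24% called lower. The lists, here and below, were chosen with earlier results of these data known, so their counts are descriptions. Ahrr, the repressor that AHR induces to limit its own activity, ranged from 0.0626 to 0.562 (median 0.314) CPM in PBS.AIR.DEX and from 1.22 to 2.80 (median 1.81) CPM in PBS.CS.DEX (log2FC = 2.79 ± 0.29, limma adjusted p = 5.88e-11). All 10 smoke libraries were above all 10 air libraries. Cyp1a1, which oxidises polycyclic hydrocarbons, ranged from 4.78 to 24.2 (median 11.8) CPM in PBS.AIR.DEX and from 12.1 to 389 (median 94.2) CPM in PBS.CS.DEX (log2FC = 2.76 ± 0.58, limma adjusted p = 0.00120). Its rise was uneven, since 7 smoke libraries exceeded every air library and the other three lay inside the air range. Cyp1b1, a related enzyme, ranged from 12.4 to 50.04 (median 26.6) CPM in PBS.AIR.DEX and from 37.7 to 67.8 (median 47.8) CPM in PBS.CS.DEX (log2FC = 1.04 ± 0.18, limma adjusted p = 4.66e-05), and its groups overlapped. The glucuronosyltransferases Ugt1a6a (log2FC = 1.22 ± 0.16, limma adjusted p = 1.60e-07) and Ugt1a7c (log2FC = 1.31 ± 0.18, limma adjusted p = 1.41e-07), which attach a sugar to phenols so that they can be excreted, rose without overlap. Ugt1a1, which is not on the AHR list and whose product also conjugates bilirubin, rose as well (log2FC = 1.70 ± 0.34, limma adjusted p = 0.000497). The Ugt1a genes share their last exons, so reads there are split between them by estimate and the 3 values are not independent. Lpcat2, which makes platelet-activating factor, rose too (log2FC = 0.50 ± 0.11, limma adjusted p = 0.00217), and Nqo1, described below, was the other target called. Tiparp and Aldh3a1 did not pass the test (log2FC = 0.19 and 0.66, limma adjusted p = 0.116 and 0.310).

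**Figure D1:**
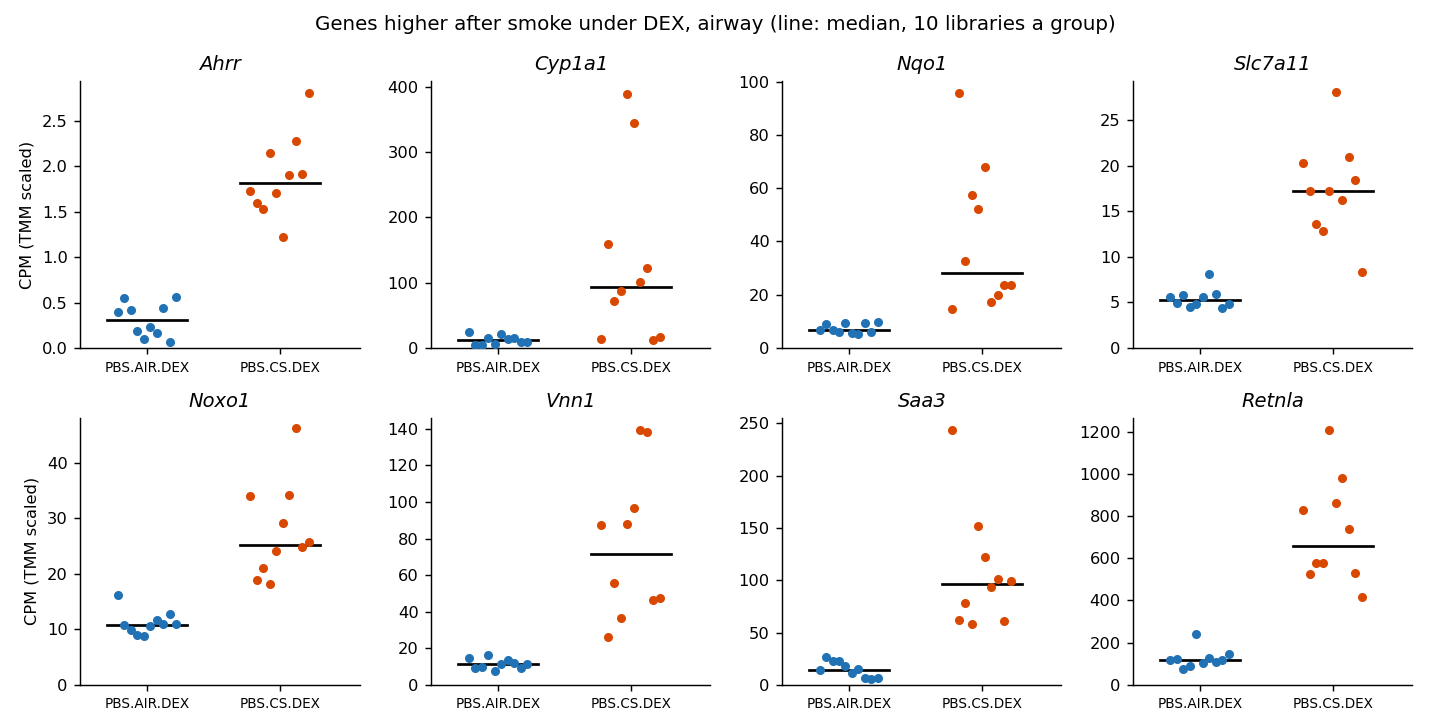
Expression of 8 genes that were higher after smoke, in CPM on linear axes from 0, with 1 point per airway library (10 PBS.AIR.DEX in blue, 10 PBS.CS.DEX in orange) and a line at each group's median. The groups do not overlap for any gene but Cyp1a1, for which 7 of 10 smoke libraries exceed every air library.

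The bases before the start of 3 AHR targets and of the NRF2 target Gclm are shown because they hold the motifs searched for, with RefSeq sequence on build GRCm38.p6, 250 bases up to the start, 5′ to 3′ on the gene's strand. Capitals mark GCGTG, the core that AHR and its partner ARNT bind, and TGACNNNGC, the antioxidant response core that NRF2 binds, on either strand. No printed match of one motif overlaps a match of the other.
Ahrr (chr13:74292332-74292581, minus strand): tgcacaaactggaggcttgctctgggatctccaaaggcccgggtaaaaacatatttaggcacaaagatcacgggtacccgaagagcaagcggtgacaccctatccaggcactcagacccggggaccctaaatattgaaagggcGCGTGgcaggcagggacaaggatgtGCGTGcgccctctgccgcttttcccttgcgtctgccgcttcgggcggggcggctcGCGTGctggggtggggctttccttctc
Cyp1a1 (chr9:57697363-57697612, plus strand): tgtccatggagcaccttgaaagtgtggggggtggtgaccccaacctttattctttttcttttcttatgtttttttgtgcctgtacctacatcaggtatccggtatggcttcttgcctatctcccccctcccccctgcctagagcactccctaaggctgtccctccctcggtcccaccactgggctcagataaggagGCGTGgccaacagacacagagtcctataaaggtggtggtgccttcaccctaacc
Cyp1b1 (chr17:79715062-79715311, minus strand): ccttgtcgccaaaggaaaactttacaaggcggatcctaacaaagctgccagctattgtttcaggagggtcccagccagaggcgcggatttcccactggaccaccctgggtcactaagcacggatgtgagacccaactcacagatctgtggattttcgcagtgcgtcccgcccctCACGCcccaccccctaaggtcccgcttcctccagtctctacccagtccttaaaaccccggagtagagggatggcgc
Gclm (chr3:122245307-122245556, plus strand): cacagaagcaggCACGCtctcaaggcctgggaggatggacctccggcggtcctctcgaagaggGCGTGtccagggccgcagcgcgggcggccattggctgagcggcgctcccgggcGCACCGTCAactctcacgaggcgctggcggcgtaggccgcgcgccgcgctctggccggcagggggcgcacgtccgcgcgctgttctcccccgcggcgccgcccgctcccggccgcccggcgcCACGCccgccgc

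GCGTG was found 3 times before Ahrr, the nearest at 27 bases before the start, and 1 time each before Cyp1a1 and Cyp1b1. Gclm held 3 matches of GCGTG and 1 of TGACNNNGC. Among 32851 promoters of the same length, 28.2% held GCGTG and 10.2% held TGACNNNGC. Of the AHR list, 12 genes had a promoter, of which 6 held GCGTG and 2 held TGACNNNGC in at least 1 window. Of the NRF2 list, 29 genes had a promoter, of which 17 held GCGTG and 8 held TGACNNNGC, so GCGTG was not particular to the AHR list. Nqo1, Slc7a11, Ugt1a6a and Ugt1a7c, all called higher, held neither motif in this window. These matches describe letters in a short window and no binding was measured.

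A smaller share of NRF2 targets was called than of AHR targets. Of 35 measured, 8 rose, none fell and 27 did not pass (median 0.24). Nqo1, a quinone reductase that is also an AHR target, ranged from 5.41 to 9.93 (median 6.84) CPM in PBS.AIR.DEX and from 14.8 to 95.7 (median 28.1) CPM in PBS.CS.DEX (log2FC = 2.20 ± 0.39, limma adjusted p = 8.22e-05). Slc7a11, the cystine importer that feeds glutathione synthesis, ranged from 4.41 to 8.09 (median 5.26) CPM in PBS.AIR.DEX and from 8.34 to 28.1 (median 17.3) CPM in PBS.CS.DEX (log2FC = 1.62 ± 0.29, limma adjusted p = 8.22e-05). Neither gene overlapped between groups. Akr1b8, an aldo-keto reductase, rose (log2FC = 1.09 ± 0.20, limma adjusted p = 0.000117), as did Gstp1, a glutathione S-transferase of the xenobiotic list (log2FC = 0.76 ± 0.13, limma adjusted p = 8.22e-05). The changes in Gclm, Txnrd1, Srxn1, Ftl1 and Pgd, which serve glutathione synthesis, thioredoxin and sulfiredoxin repair, iron storage and NADPH supply, were small, with log2FC of 0.39, 0.35, 0.34, 0.39 and 0.46, and all passed. Gclc and Hmox1 did not pass (log2FC = 0.33 and 0.47, limma adjusted p = 0.122 and 0.228). Of 29 genes of general xenobiotic metabolism, 4 rose and none fell, with a median of 0.14.

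Genes around these pathways rose too. They were grouped after their values were seen, so their counts are descriptions. Of 9 glutathione salvage and pantetheinase genes, 5 rose, none fell and 4 did not pass. Ggt1, which splits extracellular glutathione, ranged from 1.16 to 2.16 (median 1.70) CPM in PBS.AIR.DEX and from 4.05 to 14.6 (median 6.13) CPM in PBS.CS.DEX (log2FC = 2.03 ± 0.26, limma adjusted p = 5.14e-08). The pantetheinases Vnn1 and Vnn3, which yield cysteamine and lie near each other on chromosome 10 (GRCm38 chr10:23894688-23905343 and chr10:23851462-23869843), both rose without overlap. Vnn1 ranged from 7.30 to 16.3 (median 11.4) CPM in PBS.AIR.DEX and from 26.2 to 139.5 (median 71.4) CPM in PBS.CS.DEX (log2FC = 2.56 ± 0.27, limma adjusted p = 1.87e-10), and Vnn3 ranged from 3.20 to 7.65 (median 4.97) CPM in PBS.AIR.DEX and from 9.13 to 16.3 (median 11.8) CPM in PBS.CS.DEX (log2FC = 1.25 ± 0.19, limma adjusted p = 1.97e-06). The superoxide-producing oxidase NOX1 needs an activator and an organiser, and transcripts of these 3 parts were higher. They were 3 of 5 genes listed for this complex, and the other 2 did not pass. Nox1 ranged from 0.174 to 1.02 (median 0.506) CPM in PBS.AIR.DEX and from 0.876 to 2.60 (median 1.65) CPM in PBS.CS.DEX (log2FC = 1.56 ± 0.35, limma adjusted p = 0.00297). Its activator Noxa1 (log2FC = 1.31 ± 0.24, limma adjusted p = 0.000119) and organiser Noxo1 (log2FC = 1.28 ± 0.20, limma adjusted p = 5.81e-06) rose by similar amounts, and only Noxo1 had groups that did not overlap. Slc39a4, a zinc importer, had one of the smallest p values of all, since its libraries varied little and it ranged from 46.5 to 78.3 (median 64.1) CPM in PBS.AIR.DEX and from 105.3 to 174.99 (median 139.4) CPM in PBS.CS.DEX (log2FC = 1.16 ± 0.12, limma adjusted p = 5.88e-11).

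Of 18 measured acute phase genes, 6 rose, none fell and 12 did not pass, with a median log2FC of 0.28. Saa3, a locally made serum amyloid A, ranged from 6.01 to 26.2 (median 14.6) CPM in PBS.AIR.DEX and from 57.7 to 244 (median 96.4) CPM in PBS.CS.DEX (log2FC = 2.90 ± 0.35, limma adjusted p = 7.91e-09). Lcn2, lipocalin 2, which binds bacterial iron carriers, ranged from 159.6 to 492 (median 271) CPM in PBS.AIR.DEX and from 490.2 to 1242 (median 857) CPM in PBS.CS.DEX (log2FC = 1.60 ± 0.25, limma adjusted p = 8.38e-06), and 9 of 10 smoke libraries exceeded every air library. The orosomucoids Orm1 (log2FC = 1.30 ± 0.27, limma adjusted p = 0.00114) and Orm2 (log2FC = 2.10 ± 0.39, limma adjusted p = 0.000142), plasma carrier proteins, rose, as did the protease inhibitor Serpina3n (log2FC = 1.23 ± 0.23, limma adjusted p = 0.000226) and Saa1 (log2FC = 2.39 ± 0.63, limma adjusted p = 0.0165). Orm2 was not called with a filter of at least 10 CPM in 9 libraries. Some genes of the Saa and Orm families are near-identical copies, so reads may be shared between such copies. Of 15 iron handling genes, 5 rose and none fell, among them Slc11a1, an iron and manganese transporter of phagocyte vesicles (log2FC = 1.02 ± 0.17, limma adjusted p = 1.68e-05).

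Some chemokines that draw neutrophils and monocytes were called. Of 11 neutrophil chemokines and growth factors, 3 rose, 1 fell and 7 did not pass, with a median of 0.73. Cxcl5, made by epithelium, ranged from 6.99 to 17.4 (median 9.60) CPM in PBS.AIR.DEX and from 8.07 to 93.8 (median 55.9) CPM in PBS.CS.DEX (log2FC = 1.91 ± 0.46, limma adjusted p = 0.00591). Cxcl1 ranged from 3.34 to 15.6 (median 9.61) CPM in PBS.AIR.DEX and from 13.9 to 63.1 (median 30.4) CPM in PBS.CS.DEX (log2FC = 1.63 ± 0.32, limma adjusted p = 0.000497). For both, 8 of 10 smoke libraries exceeded every air library. Cxcl2 also rose (log2FC = 1.48 ± 0.37, limma adjusted p = 0.00849), while the platelet chemokine Ppbp fell (log2FC = -1.27 ± 0.28, limma adjusted p = 0.00236). Of 15 monocyte chemokines and receptors, 5 rose, none fell and 10 did not pass (median 0.61). Ccl2, the main ligand of CCR2, ranged from 2.002 to 4.95 (median 3.27) CPM in PBS.AIR.DEX and from 4.84 to 18.1 (median 9.02) CPM in PBS.CS.DEX (log2FC = 1.40 ± 0.28, limma adjusted p = 0.000643). Ccl3 (log2FC = 1.44 ± 0.36, limma adjusted p = 0.00994), Ccl9 (log2FC = 1.02 ± 0.19, limma adjusted p = 0.000259) and the receptors Ccr1 (log2FC = 0.97 ± 0.19, limma adjusted p = 0.000577) and Cx3cr1 (log2FC = 0.67 ± 0.19, limma adjusted p = 0.0337) rose as well, and the Cx3cr1 call ended when any of 8 of the 20 libraries was left out (limma adjusted p = 0.0751 at the most).  Of 15 genes of the interleukin-1 family and inflammasome, the 2 called were inhibitors of interleukin-1, the receptor antagonist Il1rn (log2FC = 1.33 ± 0.33, limma adjusted p = 0.00935) and the decoy receptor Il1r2 (log2FC = 1.51 ± 0.33, limma adjusted p = 0.00167). With a filter of at least 10 CPM in 9 libraries Ccl3 and Il1r2 lost their calls, and Cxcl2 and Ppbp were not tested. Il1b ranged from 7.20 to 25.4 (median 16.2) CPM in PBS.AIR.DEX and from 11.5 to 48.3 (median 17.2) CPM in PBS.CS.DEX and did not pass the test (log2FC = 0.42 ± 0.29, limma adjusted p = 0.608).

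Macrophage genes rose in part. In whole tissue, more cells of a type and more RNA per cell cannot be told apart. Of 27 genes of lipid-laden macrophages, 7 rose and none fell, with 26 of 27 above 0 and a median of 0.37. Spp1, osteopontin, ranged from 14.7 to 40.6 (median 18.1) CPM in PBS.AIR.DEX and from 33.2 to 359.8 (median 96.7) CPM in PBS.CS.DEX (log2FC = 2.26 ± 0.32, limma adjusted p = 5.67e-07). Mmp12, the macrophage elastase, ranged from 9.46 to 43.05 (median 16.96) CPM in PBS.AIR.DEX and from 25.3 to 114.2 (median 64.9) CPM in PBS.CS.DEX (log2FC = 1.64 ± 0.27, limma adjusted p = 1.23e-05). The scavenger receptor Msr1 ranged from 11.1 to 20.5 (median 15.3) CPM in PBS.AIR.DEX and from 21.5 to 67.3 (median 38.1) CPM in PBS.CS.DEX (log2FC = 1.35 ± 0.20, limma adjusted p = 1.81e-06). Only Msr1 of these separated the groups in full. Trem2 (log2FC = 0.98 ± 0.24, limma adjusted p = 0.00927) and Apoe (log2FC = 0.75 ± 0.15, limma adjusted p = 0.000629), a lipid receptor and a lipid carrier, rose less. The lysosomal genes Ctsk, Cd68 and Atp6v0d2 did not pass, with log2FC of 0.51, 0.45 and -0.0020. Retnla, resistin-like alpha, made by macrophages and by airway epithelium, ranged from 75.3 to 240.3 (median 116.4) CPM in PBS.AIR.DEX and from 414 to 1209 (median 658) CPM in PBS.CS.DEX (log2FC = 2.54 ± 0.28, limma adjusted p = 6.34e-10) without overlap.

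Other myeloid genes were named after their values were seen. Pla2g7, which degrades platelet-activating factor, ranged from 15.9 to 26.9 (median 20.4) CPM in PBS.AIR.DEX and from 37.3 to 54.9 (median 44.05) CPM in PBS.CS.DEX (log2FC = 1.10 ± 0.12, limma adjusted p = 7.13e-10). Ms4a4a, a membrane protein of macrophages, ranged from 2.38 to 5.96 (median 4.66) CPM in PBS.AIR.DEX and from 11.4 to 16.8 (median 14.1) CPM in PBS.CS.DEX (log2FC = 1.64 ± 0.19, limma adjusted p = 1.09e-09), and the complement receptor C3ar1 ranged from 6.04 to 12.3 (median 8.86) CPM in PBS.AIR.DEX and from 12.3 to 32.9 (median 22.98) CPM in PBS.CS.DEX (log2FC = 1.32 ± 0.18, limma adjusted p = 2.40e-07). None of the 3 overlapped between groups. Of 13 alveolar macrophage markers only Marco was called (log2FC = 1.16 ± 0.34, limma adjusted p = 0.0389), and leaving out any of 11 of the 20 libraries ended that call (limma adjusted p = 0.108 at the most). The markers had a median log2FC of -0.10, with 8 of 13 below 0 and the lowest at -2.17. edgeR and DESeq2 each called 1 of them lower. The summed level of the list ran from 631 to 1889.9 CPM in PBS.AIR.DEX and from 737 to 2692 CPM in PBS.CS.DEX, and its part in the results was not tested. Of 13 neutrophil markers, 4 rose and none fell (median 0.52), namely Mmp8, Il1r2, Camp and Stfa2l1. Mmp8 and Camp were not called in a fit of the 2 groups alone (limma adjusted p = 0.166 and 0.0604), and Stfa2l1 lost its call without any of 10 libraries. The abundant neutrophil transcripts S100a8 and S100a9 did not pass (log2FC = 0.52 and 0.49, limma adjusted p = 0.478 and 0.531). The summed neutrophil level ran from 494 to 1573 CPM and from 611 to 1766 CPM, and the groups overlapped.

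**Figure D2:**
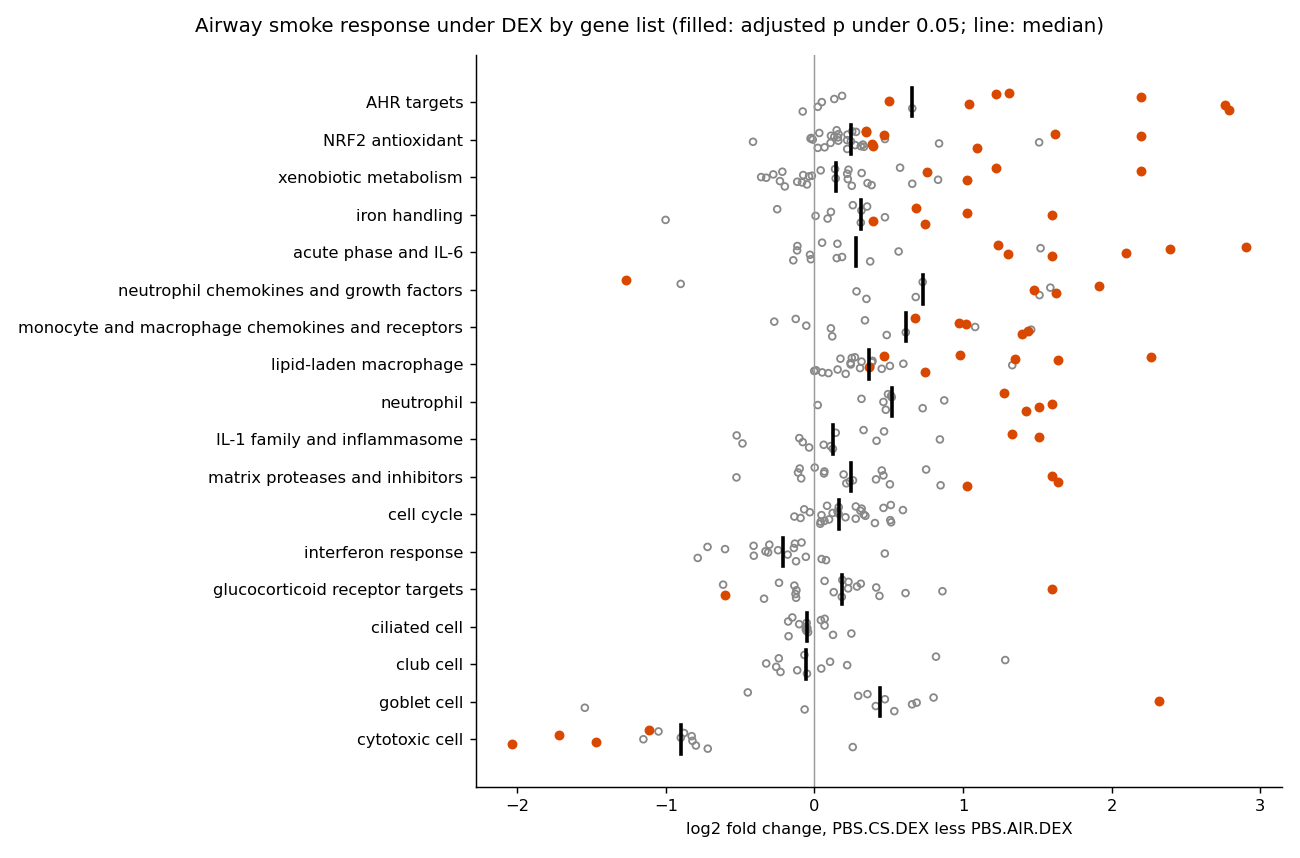
log2 fold change of each measured gene in 18 gene lists, PBS.CS.DEX less PBS.AIR.DEX, airway. Filled orange points passed a limma adjusted p under 0.05, open grey points did not, and black lines are list medians. AHR targets reach a median of 0.66 with 7 filled points, while ciliated and club cell genes sit near 0 with none and cytotoxic cell genes have a median of -0.90.

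Among epithelial genes, single transcripts rose while most cell markers did not pass. Gp2, a receptor for bacterial fimbriae that marks M cells and some secretory cells, ranged from 2.16 to 11.4 (median 6.73) CPM in PBS.AIR.DEX and from 17.6 to 58.2 (median 30.5) CPM in PBS.CS.DEX (log2FC = 2.32 ± 0.45, limma adjusted p = 0.000351) without overlap. It was the 1 gene called of 12 on the goblet cell list. Muc5ac and Muc5b, the gel-forming mucins, had log2FC of 0.80 and 0.29 (limma adjusted p = 0.608 and 0.776). Slc26a4, the anion exchanger pendrin, ranged from 6.88 to 18.8 (median 11.6) CPM in PBS.AIR.DEX and from 14.6 to 71.6 (median 32.7) CPM in PBS.CS.DEX (log2FC = 1.56 ± 0.35, limma adjusted p = 0.00250). The chloride channel Ano1 rose slightly (log2FC = 0.34 ± 0.08, limma adjusted p = 0.00224), so 2 of 11 ion transport genes were called. Pigr, which carries IgA across epithelium, ranged from 277 to 684 (median 384) CPM in PBS.AIR.DEX and from 573 to 934 (median 796) CPM in PBS.CS.DEX (log2FC = 0.90 ± 0.13, limma adjusted p = 8.59e-07). Igha, the IgA heavy chain, was higher by 1.02 ± 0.24 (limma adjusted p = 0.00432), whereas the J chain was not called (log2FC = 0.43 ± 0.30, limma adjusted p = 0.607). A fit of the 2 groups alone lost the Igha call (limma adjusted p = 0.0987). Of 13 B cell genes only Fcer2a, the low-affinity IgE receptor, was called (log2FC = 1.32 ± 0.32, limma adjusted p = 0.00695), while the median of the list was -0.69 and the B cell marker Ms4a1 did not pass (log2FC = -0.80 ± 0.45, limma adjusted p = 0.458). Spink5, an inhibitor of serine proteases, was scarce with air and ranged from 0.00 to 0.281 (median 0.0792) CPM in PBS.AIR.DEX and from 0.343 to 3.07 (median 0.887) CPM in PBS.CS.DEX (log2FC = 3.23 ± 0.43, limma adjusted p = 1.30e-07). Mab21l3 rose from a low level too (log2FC = 2.34 ± 0.35, limma adjusted p = 1.90e-06), and Lemd1 ranged from 0.385 to 3.69 (median 1.35) CPM in PBS.AIR.DEX and from 4.34 to 8.66 (median 6.34) CPM in PBS.CS.DEX (log2FC = 2.21 ± 0.25, limma adjusted p = 1.09e-09). None of these 3 overlapped between groups.

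The falls of greatest size included genes of multiciliated cell formation. Of 17 such genes, collected after their values were seen, 7 fell and none rose (background 1.24% lower), with a median log2FC of -0.33. Mcidas, the master regulator of the multiciliated fate, ranged from 0.907 to 4.59 (median 2.11) CPM in PBS.AIR.DEX and from 0.244 to 1.08 (median 0.743) CPM in PBS.CS.DEX (log2FC = -1.58 ± 0.29, limma adjusted p = 0.000110). Cdc20b, which takes part in centriole amplification, ranged from 0.438 to 2.38 (median 0.895) CPM in PBS.AIR.DEX and from 0.0349 to 0.333 (median 0.197) CPM in PBS.CS.DEX (log2FC = -2.55 ± 0.40, limma adjusted p = 6.85e-06). Ccno, a cyclin needed for centriole amplification, ranged from 3.58 to 8.45 (median 4.19) CPM in PBS.AIR.DEX and from 1.52 to 3.55 (median 2.73) CPM in PBS.CS.DEX (log2FC = -0.88 ± 0.18, limma adjusted p = 0.000782). Cdc20b and Ccno separated the groups in full, and 8 of 10 smoke libraries lay below every air library for Mcidas. These 3 genes are neighbours on chromosome 13 in GRCm38 (Ccno at chr13:112987802-112990777, Mcidas at chr13:112993845-113000394 and Cdc20b at chr13:113035111-113091195). The cyclin Ccna1 ranged from 1.87 to 9.91 (median 4.06) CPM in PBS.AIR.DEX and from 0.457 to 1.83 (median 1.16) CPM in PBS.CS.DEX (log2FC = -1.69 ± 0.26, limma adjusted p = 4.11e-06), and Foxn4 (log2FC = -1.04 ± 0.26, limma adjusted p = 0.00872), Deup1 (log2FC = -0.76 ± 0.18, limma adjusted p = 0.00555) and Hyls1 (log2FC = -0.39 ± 0.11, limma adjusted p = 0.0285) also fell, the last losing its call without any of 8 libraries (limma adjusted p = 0.0810 at the most). A filter of at least 10 CPM in 9 libraries left Mcidas, Cdc20b, Ccno, Ccna1, Foxn4 and Hyls1 untested, and Deup1 kept its call. Markers of mature ciliated cells did not follow these falls, as none of 15 was called by limma, edgeR or DESeq2 or had an unadjusted p under 0.05. Their median was -0.05, and Foxj1 differed by 0.07 ± 0.18 (limma adjusted p = 0.949).

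**Figure D3:**
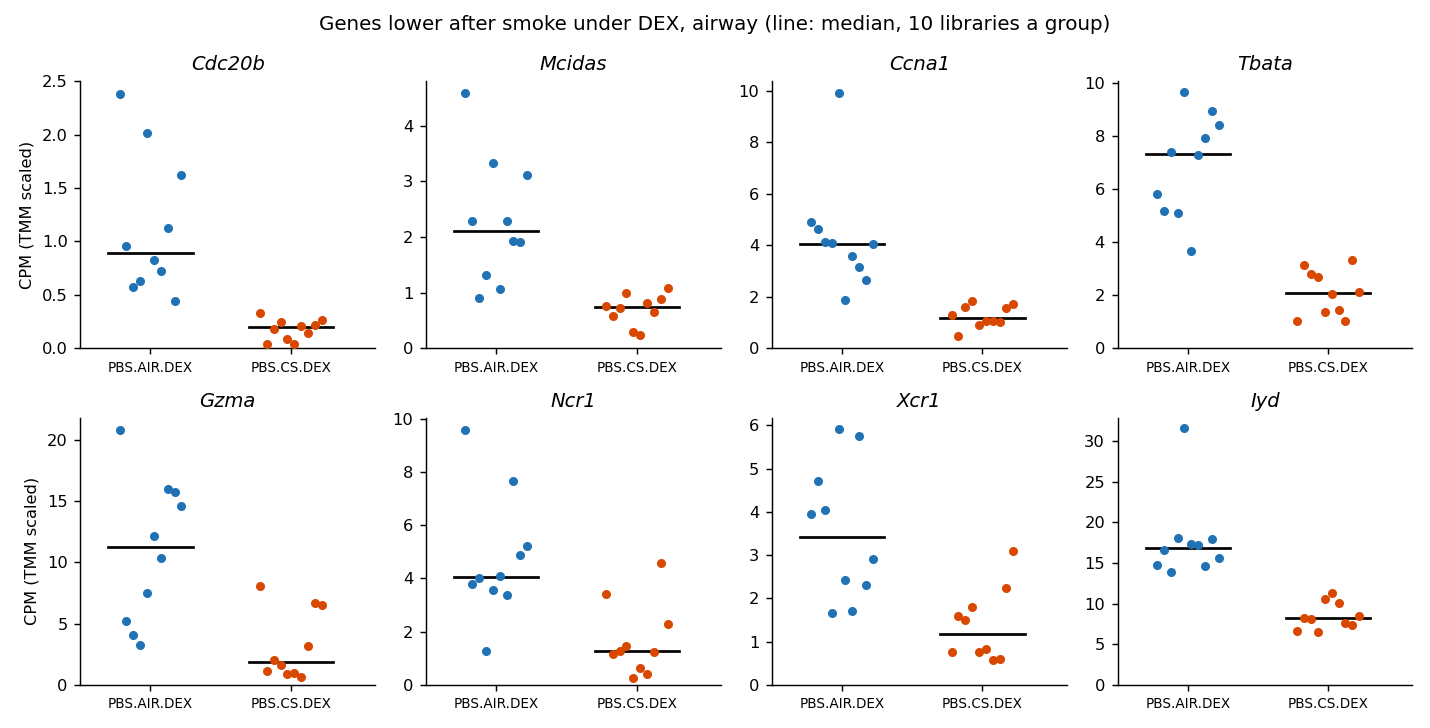
Expression of 8 genes that were lower after smoke, in CPM on linear axes from 0, with 1 point per airway library (10 PBS.AIR.DEX in blue, 10 PBS.CS.DEX in orange) and a line at each group's median. Cdc20b, Ccna1, Tbata and Iyd do not overlap between groups, while Mcidas, Gzma, Ncr1 and Xcr1 do.

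A few scarce transcripts of natural killer (NK) cells and type 1 dendritic cells were called lower. Of 13 cytotoxic cell genes, 4 fell, none rose and 9 did not pass, with a median of -0.90. Gzma, granzyme A, ranged from 3.28 to 20.8 (median 11.3) CPM in PBS.AIR.DEX and from 0.634 to 8.05 (median 1.83) CPM in PBS.CS.DEX (log2FC = -2.03 ± 0.51, limma adjusted p = 0.0104). Ncr1, the NK receptor NKp46, ranged from 1.26 to 9.57 (median 4.05) CPM in PBS.AIR.DEX and from 0.250 to 4.58 (median 1.26) CPM in PBS.CS.DEX (log2FC = -1.72 ± 0.42, limma adjusted p = 0.00722). Gzmb fell as well (log2FC = -1.47 ± 0.37, limma adjusted p = 0.0104), and the transcription factor Tbx21 fell (log2FC = -1.11 ± 0.32, limma adjusted p = 0.0331) but lost its call without any of 10 of the 20 libraries (limma adjusted p = 0.0829 at the most). The summed level of the cytotoxic list ran from 12.96 to 74.99 CPM in PBS.AIR.DEX and from 5.42 to 73.4 CPM in PBS.CS.DEX, so the groups overlapped. On a longer NK list made after values were seen, 8 of 17 fell. None of 15 T cell genes was called by limma, edgeR or DESeq2 or had an unadjusted p under 0.05, and their median was 0.25. Xcr1, the chemokine receptor that defines type 1 dendritic cells, ranged from 1.66 to 5.91 (median 3.43) CPM in PBS.AIR.DEX and from 0.573 to 3.09 (median 1.17) CPM in PBS.CS.DEX (log2FC = -1.40 ± 0.34, limma adjusted p = 0.00672). Clec9a, their receptor for dead cells, ranged from 1.99 to 9.87 (median 3.47) CPM in PBS.AIR.DEX and from 1.21 to 3.14 (median 1.53) CPM in PBS.CS.DEX (log2FC = -1.13 ± 0.27, limma adjusted p = 0.00695), and Tlr11, which senses profilin, fell by a like amount (log2FC = -1.52 ± 0.31, limma adjusted p = 0.000629). The other nine of 12 type 1 dendritic cell genes, a list also made after values were seen, did not pass. With a filter of at least 10 CPM in 9 libraries Gzma, Ncr1, Xcr1, Clec9a and Tlr11 were no longer called. The scarcer Gzmb and Tbx21 did not pass that filter and were not tested with it.

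Several further falls belong to no list. Tbata, a gene named for thymus, brain and testis, ranged from 3.67 to 9.63 (median 7.32) CPM in PBS.AIR.DEX and from 1.03 to 3.33 (median 2.07) CPM in PBS.CS.DEX (log2FC = -1.79 ± 0.19, limma adjusted p = 1.87e-10). Iyd, iodotyrosine deiodinase, which recovers iodide, ranged from 13.9 to 31.6 (median 16.9) CPM in PBS.AIR.DEX and from 6.50 to 11.3 (median 8.18) CPM in PBS.CS.DEX (log2FC = -1.05 ± 0.14, limma adjusted p = 5.32e-08). Both separated the groups in full, as did Bcan, a brain proteoglycan (log2FC = -1.82 ± 0.30, limma adjusted p = 1.68e-05), Rptn, an epidermal matrix protein (log2FC = -1.63 ± 0.25, limma adjusted p = 4.11e-06), and Ppp2r2c, a regulatory subunit of protein phosphatase 2A (log2FC = -1.06 ± 0.16, limma adjusted p = 1.39e-06). Asgr1, an asialoglycoprotein receptor, fell (log2FC = -1.35 ± 0.19, limma adjusted p = 5.67e-07), and so did Upk1a, a uroplakin (log2FC = -1.25 ± 0.16, limma adjusted p = 2.32e-08), and Crocc2 of the ciliary rootlet (log2FC = -1.05 ± 0.16, limma adjusted p = 3.89e-06).

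Many lists had no call. Of 22 lists of function, 7 had no called gene, covering type 2 cytokines, the IL-17 axis, interferon response, lymphoid chemokines, the circadian clock, the cell cycle and cholesterol synthesis. Their 120 tested genes held 14 at an unadjusted p under 0.05, a level that 13.3% of all genes reached, and edgeR called 3 and DESeq2 5. Of the 18 interferon genes, 6 were at that unadjusted level, 5 of them lower. Of 23 lists of cell source, 15 had no called gene (12 genes at an unadjusted p under 0.05, 1 called by edgeR and 2 by DESeq2). The cell cycle list had a median of 0.16 and the interferon list -0.21. Of 21 glucocorticoid receptor targets, Lcn2 rose and Dusp1, a phosphatase that restrains MAP kinases, fell. Dusp1 ranged from 82.9 to 138.9 (median 106.05) CPM in PBS.AIR.DEX and from 48.5 to 88.6 (median 68.8) CPM in PBS.CS.DEX (log2FC = -0.60 ± 0.13, limma adjusted p = 0.00134), and 7 of 10 smoke libraries lay below every air library. Fkbp5 and Tsc22d3, the usual transcripts of steroid exposure, did not pass (log2FC = 0.61 and 0.07, limma adjusted p = 0.110 and 0.958). Fkbp5 passed without PBS.AIR.DEX library X167 (limma adjusted p = 0.0359). As a check of the DEX label, the PBS.AIR.DEX libraries were set against PBS.AIR. Tsc22d3, which corticosteroids are known to induce, was lower, opposite to the direction expected from the label (log2FC = -1.07 ± 0.23, limma adjusted p = 0.000584) and Fkbp5 was not called (log2FC = -0.02 ± 0.22, limma adjusted p = 0.962). Of the 21 targets, 4 were lower in that check, against 5.78% of all genes, and 1 was higher, with a median log2FC of -0.04. The share of all genes called higher in that check is not given here. Other lists shifted in the same check. Of 13 B cell genes 11 were lower, and so were 11 of 13 cytotoxic cell genes, against 5.78% of all genes. Alveolar type II genes went the other way, with a median log2FC of 0.81. The cause of these shifts was not tested.

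The same contrast without DEX called 2072 genes (11.5%), 1210 higher (6.72%) and 862 lower (4.78%). Of the 561 genes called under DEX, 423 (75.4%) were also called without it, all in the same direction, and these were 20.4% of the 2072. The contrasts share no library. A larger count in one contrast does not show that the effects differ, and the difference itself passed for 8 of 18015 genes (0.0444%). That count moved with the processing, from 2 genes in a fit of the 4 groups alone to 58 with the covariates above, and fell to 4 without PBS.AIR library X125 and to 5 without PBS.CS.DEX library X155, PBS.AIR.DEX library X47, PBS.CS libraries X53, X93 or X113, or PBS.AIR library X145. Gpnmb had medians of 22.9 and 135.04 CPM for air and smoke without DEX, and of 117.7 and 188.1 CPM with it, for this lysosomal glycoprotein of lipid-laden macrophages (difference of log2FC = -2.07 ± 0.37, limma adjusted p = 0.00292). Clmp had medians of 10.8 and 36.9 CPM for air and smoke without DEX, and of 20.2 and 29.6 CPM with it, and this adhesion gene was the 1 of the 8 with groups that did not overlap under DEX (difference of log2FC = -1.09 ± 0.19, limma adjusted p = 0.00292). For Gpnmb, every air library with DEX lay above every air library without it. The chemokine Ccl6 rose from 215 to 744 CPM without DEX, and its medians with DEX were 487 and 620.0 CPM (difference of log2FC = -1.62 ± 0.34, limma adjusted p = 0.0216). Cd200r2 had medians of 0.0348 and 1.57 CPM for air and smoke without DEX, and of 1.002 and 2.05 CPM with it (difference of log2FC = -4.02 ± 0.82, limma adjusted p = 0.0182). Cxcr1 had medians of 1.03 and 7.004 CPM for air and smoke without DEX, and of 18.3 and 10.7 CPM with it (difference of log2FC = -3.67 ± 0.79, limma adjusted p = 0.0333), so the median of this neutrophil chemokine receptor was highest in air with DEX. Gpr155 (difference of log2FC = 1.57 ± 0.30, limma adjusted p = 0.0102), Osbpl10 (difference of log2FC = 0.74 ± 0.14, limma adjusted p = 0.0102) and the carboxylesterase Ces1g (difference of log2FC = 1.68 ± 0.37, limma adjusted p = 0.0494) differed the other way.

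**Figure D4:**
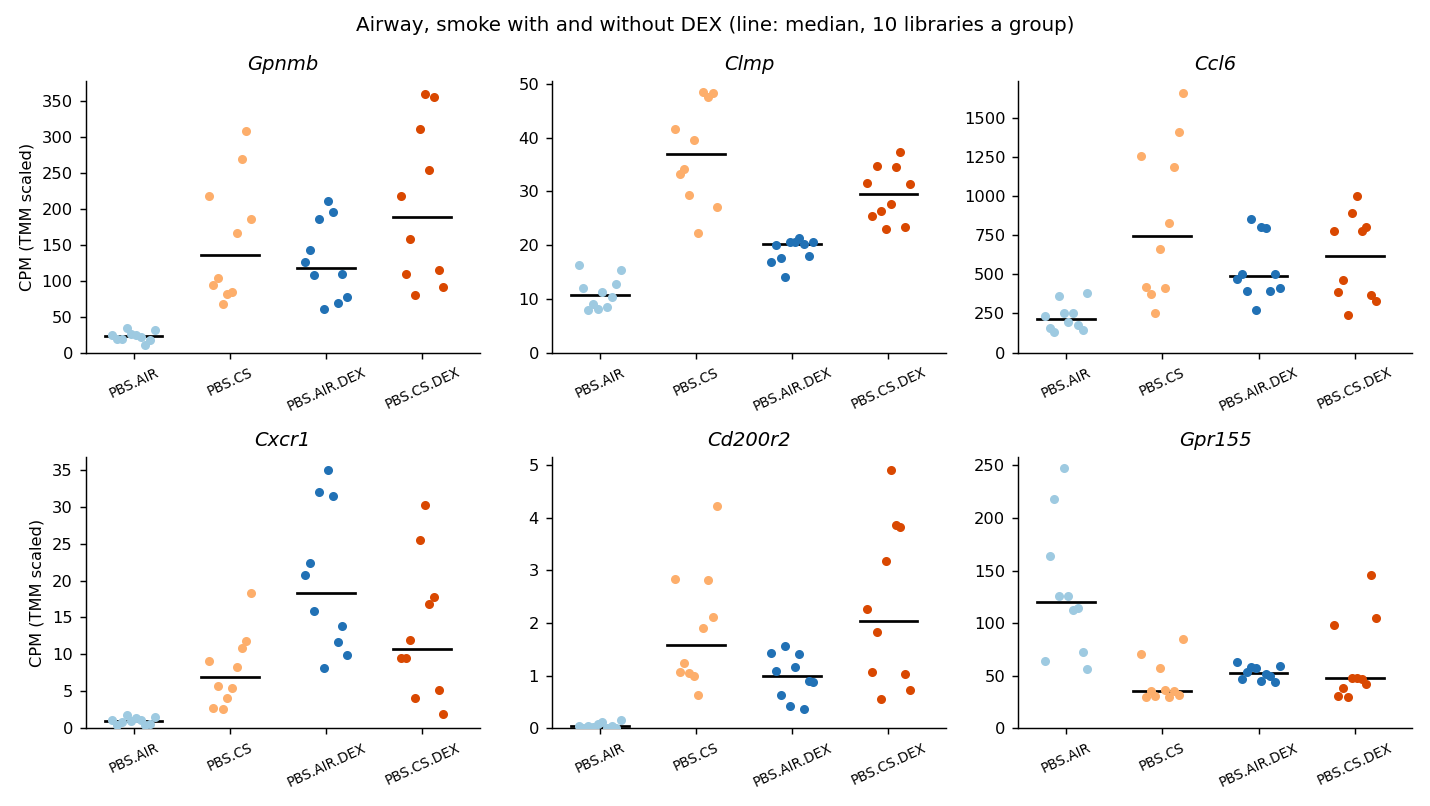
Expression of 6 genes in 4 groups of 10 airway libraries, in CPM on linear axes from 0, with 1 point per library and a line at the group median. For Gpnmb, Cxcr1 and Cd200r2 the PBS.AIR points sit below those of the other three groups, and for Gpr155 the median with air and no DEX is the highest.

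For lists, values with and without DEX stood side by side, and their counts are to be read against 1.88% of all genes called higher with DEX and 6.72% without it. AHR targets had medians of 0.66 with DEX and 0.63 without it, and 7 and 8 of 13 rose. Lipid-laden macrophage genes had medians of 0.37 and 0.71, and 7 and 22 of 27 rose, with 1 gene (Gpnmb) passing the test of the difference. Their summed level was already higher with DEX in air. Its medians were 4980 and 8148 CPM for air and smoke without DEX, and 7236 and 9206 CPM with it. Neutrophil markers had medians of 0.52 and 1.24, and 4 and 10 of 13 rose, and no gene of this list was among the 8. Neutrophil chemokines and growth factors had medians of 0.73 and 1.52, and 3 and 8 of 11 rose, with 1 gene passing the test of the difference. The summed level of this list had medians of 821 and 1999 CPM for air and smoke without DEX, and of 2270 and 3162 CPM with it. Lcn2 rose by 1.60 with DEX and 2.80 without (difference of log2FC = -1.20 ± 0.35, limma adjusted p = 0.389). For Ahrr the difference was 0.34 with an interval from -0.41 to 1.09, and for Retnla 0.22 with an interval from -0.57 to 1.005 (95% normal interval from the SE), so changes of such a size in either direction were not resolved.

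In parenchyma of the same treatments smoke changed 3330 of 18250 genes (18.2%), 1701 of them upward (9.32%). The difference between tissues passed for 12 genes (0.0658%), 11 of them with a lower log2FC in the airway, and this count ran from 6 with a filter of at least 10 CPM to 67 with quality weights. The innate defence genes Pigr, Cfb, C3 and Cd14 were among them. Pigr medians were 136.8 and 727 CPM for air and smoke in parenchyma, against 384 and 796 CPM in the airway, where the level with air was already higher (airway less parenchyma = -1.48 ± 0.20, limma adjusted p = 2.21e-07). Complement factor B, Cfb, differed (airway less parenchyma = -1.42 ± 0.27, limma adjusted p = 0.00204), and complement C3 rose in parenchyma (log2FC = 1.198 ± 0.11, limma adjusted p = 5.28e-18) but was not called in the airway (log2FC = 0.38 ± 0.12, limma adjusted p = 0.0693, airway less parenchyma = -0.82 ± 0.16, limma adjusted p = 0.00204). Leaving out PBS.AIR.DEX library X67, X127, X147 or X187 gave C3 a call in the airway (limma adjusted p = 0.0462 at the most). The lipopolysaccharide co-receptor Cd14 (airway less parenchyma = -0.97 ± 0.20, limma adjusted p = 0.00663), the metalloreductase Steap4 (airway less parenchyma = -1.24 ± 0.20, limma adjusted p = 3.92e-05) and Lemd1 (airway less parenchyma = -2.26 ± 0.39, limma adjusted p = 0.000214) rose in both tissues and less in the airway. The vasopressin receptor Avpr1a fell in parenchyma (log2FC = -3.07 ± 0.47, limma adjusted p = 9.92e-08) and was not called in the airway (log2FC = -0.51 ± 0.30, limma adjusted p = 0.497, airway less parenchyma = 2.56 ± 0.54, limma adjusted p = 0.00704). Ahrr had a log2FC of 2.79 ± 0.29 in airway and 2.73 ± 0.30 in parenchyma. Of 27 cell cycle genes, 22 rose in parenchyma (median 1.09) and none was called in the airway by limma, edgeR or DESeq2, with 2 at an unadjusted p under 0.05. No gene of the list was among the 12 whose effect differed between tissues.

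**Figure D5:**
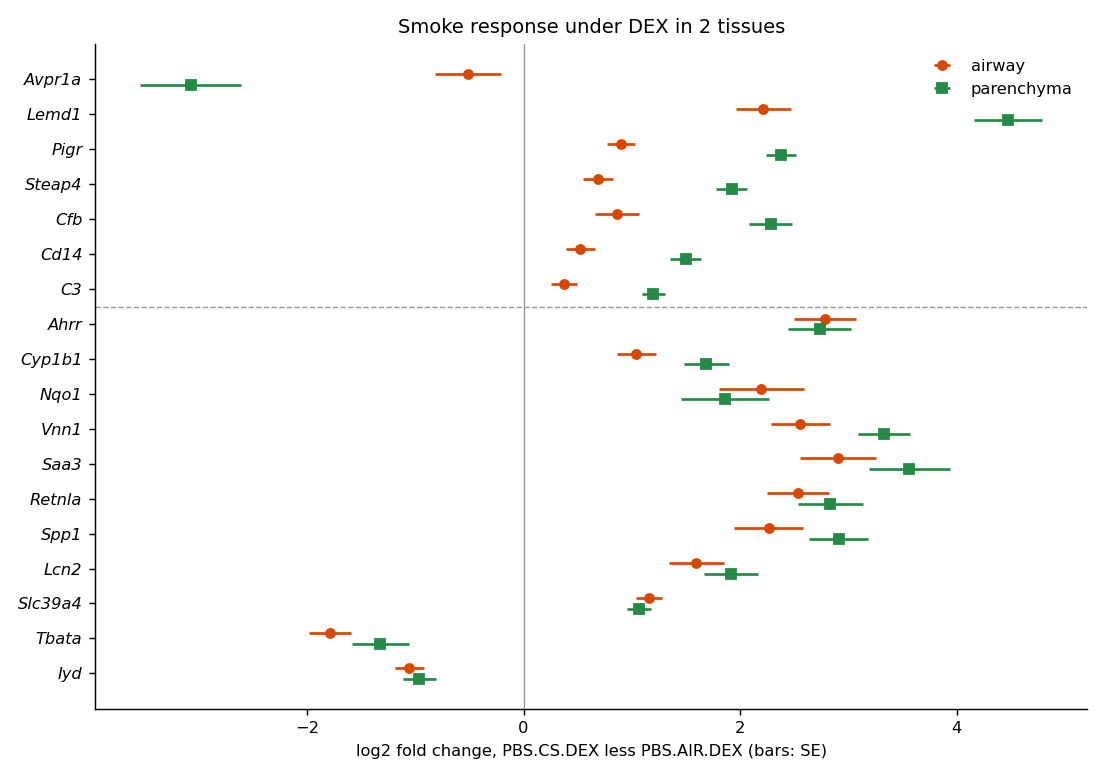
log2 fold change for smoke under DEX in airway (orange circles) and parenchyma (green squares), with bars of 1 standard error. The 7 genes above the dashed line passed the test of the difference between tissues, and in airway each lies nearer 0 than in parenchyma. The 11 genes below it did not pass.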

How the data were processed

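RNA-seq was compared in airway libraries, with parenchyma libraries for 1 test. The authors deposited a table of estimated counts per gene for 203 libraries; per the submitters' processing notes, bcl2fastq 2.20.0.422, STAR 2.5.1b, RSEM 1.2.31 and kallisto 0.44.0 were used with build mm10, and which of them gave this table is not given in the sources used here. As 20.3% of non-zero values were not whole, values were rounded. Of 43346 gene IDs, 42462 matched GENCODE M21 without version numbers, which gave symbols and GRCm38 coordinates. The study's methods used limma-voom with TMM, and so did this work (limma 3.58.1, edgeR 4.0.16, R 4.3.3): genes were kept where 9 or more libraries reached the CPM worth 10 counts at the median depth, and fitted over 80 airway libraries of 8 groups (18015 genes), or 160 libraries of 16 groups for the tissue test (18250 genes). P-values were moderated, two-sided and adjusted by Benjamini-Hochberg over all genes, and called means under 0.05.

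The gene lists and the genes described were chosen with earlier results of these data known. Genes were named if among the 12 rises or falls of greatest size with at least 1 CPM and no overlap between groups, filled by smallest p, if among the 5 smallest p or the anchors of a list, or if among the 6 smallest p of a test of difference; others are said to be chosen after values were seen. In simulated counts over 18015 genes for the smoke contrast under DEX, 79% of genes changed 2-fold and 96% of genes changed 4-fold were recovered. The changed genes all had a mean of at least 1 CPM, and the libraries were simulated as independent. Recovery of scarcer genes was not measured. Alternatives were edgeR, DESeq2 1.42.0, other scaling and filters, other sets of libraries, quality weights, a treat test and leaving out each library. No 2 libraries of a group were duplicates by a chi-square test of their counts over genes, and the labels do not say which animals the libraries came from, so p-values measure the spread between libraries.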

Additional observations from a re-analysis of the deposited data

Results flagged for a closer look

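Among 249 sets of 10 values tested for a library far from the rest, 12 held one, and chance alone gives about 1 in 20. Values above the rest were Ces1g at 7.64 CPM in PBS.AIR.DEX library X167 (group median 3.77), Cp at 938 CPM in PBS.AIR.DEX library X187 (group median 455), Iyd at 31.6 CPM in PBS.AIR.DEX library X187 (group median 16.9), Slc7a11 at 8.09 CPM in PBS.AIR.DEX library X47 (group median 5.26), Fkbp5 at 86.8 CPM in PBS.CS.DEX library X175 (group median 40.7) and Hyls1 at 7.38 CPM in PBS.CS.DEX library X155 (group median 4.93). Values below the rest were Avpr1a at 0.314 CPM in PBS.CS.DEX library X195 (group median 1.91), Ccna1 at 0.457 CPM in PBS.CS.DEX library X135 (group median 1.16), Cxcl1 at 3.34 CPM in PBS.AIR.DEX library X187 (group median 9.61), Ncr1 at 1.26 CPM in PBS.AIR.DEX library X167 (group median 4.05), Orm1 at 2.99 CPM in PBS.AIR.DEX library X27 (group median 15.5) and Upk1a at 0.869 CPM in PBS.AIR.DEX library X127 (group median 1.82). Library X187 of PBS.AIR.DEX gave 3 of the 12 values and X167 of the same group 2.

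The smoke response differed with and without DEX (log2FC with DEX less log2FC without) by -2.07 for Gpnmb, -1.09 for Clmp, -1.62 for Ccl6, -3.67 for Cxcr1 and -4.02 for Cd200r2, and by 1.57 for Gpr155, 0.74 for Osbpl10 and 1.68 for Ces1g. Under DEX it differed between airway and parenchyma by -1.48 for Pigr, -1.24 for Steap4, -2.26 for Lemd1, -1.42 for Cfb, -0.82 for C3, -0.97 for Cd14 and 2.56 for Avpr1a. Each passed the limma test of the difference.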

How the results depend on the processing

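The shares of genes called higher (1.88%, 338 genes) and lower (1.24%, 223 genes) came from counts that stayed within 1.5 times under edgeR, DESeq2, DESeq2 size factors, no filter, the 2 groups alone, all 160 libraries and quality weights. A filter of at least 10 CPM in 9 libraries left fewer genes to test, of which 0.945% were lower, 0.418% rose by a log2FC of at least 1 and 0.0418% fell by as much. With alveolar type II, cardiac muscle and adipose levels as covariates, chosen after seeing the data, 3.57% were higher and 3.36% lower. A limma treat test against a log2FC of 1 called 6 genes (0.0333%) higher and 0 lower, where limma without it called 62 lower past that fold and edgeR 0.344% of genes, and 2391 genes were at an unadjusted p under 0.05. Leaving out 1 library gave 1.55 to 2.08% higher, 0.916 to 1.4% lower, 0.539 to 0.65% higher by a log2FC of at least 1 and 0.278 to 0.378% lower by as much. The test of smoke with less without DEX called 25 genes by DESeq2, 15 with 160 libraries, 2 with the 4 groups alone and 58 with the covariates, and 4 to 12 when 1 library was left out. The test of airway less parenchyma called 35 genes by edgeR, 51 by DESeq2, 67 with quality weights and 6 with the filter of 10 CPM. The cause of these shifts was not tested. No call on a described gene was reversed. Of the 98 described genes that were called, 78 kept their call in every fit that tested them. The filter of 10 CPM left some of the 98 untested, among them Ahrr, Spink5 and Cdc20b. Of the 27 described genes that were not called, 8 passed in at least 1 alternative. These were C3 (160 libraries, covariates, block), Cd200r2 (DESeq2, covariates), Cd68 (covariates), Cxcr1 (covariates), Fkbp5 (covariates, block), Gpnmb (covariates), Muc5ac (2 groups alone), Tiparp (covariates, block). The limma adjusted p of calls lost was, with the filter of 10 CPM, Ccl3 (0.226), Ces1g (0.0679), Clec9a (0.221), Gzma (0.279), Il1r2 (0.108), Mmp8 (0.0634), Ncr1 (0.177), Orm2 (0.115), Tlr11 (0.0646), Xcr1 (0.258), and with the 2 groups alone Camp (0.0604), Ces1g (0.175), Hyls1 (0.0949), Igha (0.0987), Marco (0.0753), Mmp8 (0.166), Postn (0.131), Ptgds (0.212). Without a filter Marco and Stfa2l1 lost their calls (0.0615 and 0.0526), and with quality weights Postn did (0.0835). Calls ended when 1 library was left out for Ces1g (0.0643 to 0.0721), Col12a1 (0.0589), Cx3cr1 (0.0502 to 0.0751), Hyls1 (0.0512 to 0.0810), Marco (0.0504 to 0.108), Ptgds (0.0582 to 0.0730), Stfa2l1 (0.0534 to 0.0811), Tbx21 (0.0523 to 0.0829), by limma adjusted p. No 2 groups share a code in the labels. An alternative chosen after seeing the data took each run of 20 consecutive codes, holding 1 library of each group at 11 weeks, as a replicate block. The labels do not say what such a run stands for. PBS.CS.DEX and PBS.AIR.DEX libraries of the same run deviated together from their group means (correlation over genes from 0.0708 to 0.653, median 0.433, over 0.1 in 9 of 10 pairs, against a median of -0.0584 for other pairs), and 5 of 10 smoke libraries correlated best with the air library of their own run. With the block 2.78% of genes were higher and 1.9% lower, the test with less without DEX called 23 genes and that of airway less parenchyma 27, and no described gene lost its call. At these depths, Spink5, Cdc20b, Ahrr and Saa1 were among the described genes whose median lay under 1 CPM in at least 1 group, and fold changes of such genes are less certain.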

Other observations

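Counts below are to be read against 1.88% of all genes called higher and 1.24% lower. Some lipid mediator genes were called as well. Hpgds, the haematopoietic prostaglandin D synthase, ranged from 4.16 to 7.42 (median 5.74) CPM in PBS.AIR.DEX and from 6.67 to 15.1 (median 9.74) CPM in PBS.CS.DEX (log2FC = 0.89 ± 0.14, limma adjusted p = 6.58e-06), while the lipocalin-type enzyme Ptgds was lower (log2FC = -1.32 ± 0.36, limma adjusted p = 0.0215) and lost its call under edgeR and DESeq2. Of 19 genes of this list, 4 rose and 1 fell. Of 20 matrix proteases and inhibitors, 3 rose and none fell, the third beside Mmp8 and Mmp12 being the membrane protease Adam8 (log2FC = 1.03 ± 0.22, limma adjusted p = 0.00155). Of 22 collagen and matrix genes none rose and 2 fell, periostin, Postn (log2FC = -0.50 ± 0.12, limma adjusted p = 0.00899), and Col12a1 (log2FC = -0.65 ± 0.18, limma adjusted p = 0.0198), with a median of -0.05. The iron-oxidising plasma protein ceruloplasmin, Cp, ranged from 359.7 to 938 (median 455) CPM in PBS.AIR.DEX and from 599 to 1024 (median 859) CPM in PBS.CS.DEX (log2FC = 0.75 ± 0.15, limma adjusted p = 0.000938). Hdc, which makes histamine, was the 1 called gene of 11 on the mast cell list (log2FC = -0.44 ± 0.11, limma adjusted p = 0.00789).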
